A study of Rattus norvegicus with 8 samples.

Results

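The receptor activity-modifying proteins Ramp1, Ramp2 and Ramp3, the receptor Calcrl and the peptide genes Calca and Adm were followed in rat fetal testis after exposure to dibutyl phthalate (DBP), a plasticizer known to disturb androgen production by the fetal testis at high doses. The 6 genes were taken as a family and were selected on their DBP against vehicle values, among which Ramp1 stood out, so that contrast is given for them as a description and without a test. They were matched by symbol to 9 of the 31042 probe sets tested on the array, and to 6 of the 14217 genes that had a probe set with 1 gene symbol. Ramp1, Ramp2, Ramp3 and Adm had 1 probe set each, Calcrl had 2 and Calca had 3.

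RAMPs are short proteins that cross the membrane a single time and act as partners of the G protein-coupled receptor encoded by Calcrl. The partner decides which peptide the receptor binds: with RAMP1 it is the receptor for calcitonin gene-related peptide (CGRP), and with RAMP2 or RAMP3 it is a receptor for adrenomedullin. Calca encodes calcitonin and CGRP by alternative splicing, Adm encodes adrenomedullin, and the receptors signal mainly through Gs and cyclic AMP. The pathway is best known for relaxing blood vessels and for the growth of blood and lymphatic vessels, and CGRP is a transmitter of sensory nerve fibres.

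Testes came from male Fischer 344 fetuses at gestational day 20, and RNA of each sample was hybridised to 1 Affymetrix rat expression array, read as log2 signal per probe set (a group of short probes for a transcript). In the vehicle group (n = 4) dams were gavaged daily with corn oil, 1 ml per kg body weight, from gestational day 12 to 20. In the DBP group (n = 4) the same volume and days of corn oil carried 50 mg/kg of DBP, and in both groups testes were taken 6 h after the last dose. The labels leave out how many fetuses a sample held and whether each had its own dam. The p-values below therefore reflect the spread among these 8 arrays alone, which may be technical, and precision is limited by that number.

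The tissue label was checked against its markers. All 4 measured Sertoli cell markers and all 6 fetal Leydig cell markers lay at or above percentile 87.1 of mean signal over the probe sets, with Amh at 12.67 ± 0.044 (log2, SD, n = 4) in vehicle and 12.62 ± 0.14 after DBP. DBP replicates 3 and 4 stood apart from the other 6 arrays in the poly-A spike-in controls, which are foreign transcripts mixed into each sample. The mean log2 signal of these controls was 4.64 and 4.6, against 6.1 to 6.72 elsewhere. The SD of log2 signal over all tested probe sets was also lower on these arrays, 2.19 and 2.18 against 2.23 to 2.25. Their correlations with vehicle arrays were 0.991 to 0.994, against 0.995 to 0.996 for DBP replicates 1 and 2. Each member is therefore also given for DBP replicates 1 and 2 and for replicates 3 and 4 apart. In bulk tissue a smaller number of cells of a type and less RNA per cell cannot be told apart.

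Sequences upstream of Ramp1 and Ramp3 are shown because one of these homologous accessory proteins was higher on every DBP array and the other was not. They are RefSeq promoter windows on build GRCr8, trimmed to the bases before the first annotated start of the gene. Capitals mark a GC box (GGGCGG on either strand) or the core GCGTG of a hypoxia response element on either strand. The Ramp1 stretch is chr9:99212866-99213030 and the Ramp3 stretch chr14:85741064-85741313, both on the plus strand.
Ramp1: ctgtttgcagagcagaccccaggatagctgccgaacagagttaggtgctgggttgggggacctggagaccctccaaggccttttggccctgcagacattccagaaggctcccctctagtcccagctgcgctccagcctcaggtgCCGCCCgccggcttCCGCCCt
Ramp3: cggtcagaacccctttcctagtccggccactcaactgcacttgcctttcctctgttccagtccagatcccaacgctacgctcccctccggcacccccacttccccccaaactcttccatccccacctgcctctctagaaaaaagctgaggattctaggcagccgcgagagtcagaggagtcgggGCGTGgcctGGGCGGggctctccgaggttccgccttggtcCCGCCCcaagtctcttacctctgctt

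The full windows, 250 bases before and 50 after the start, were available for 5 of the 6 genes, all but Ramp2. The Adm window lies downstream of the outermost start that RefSeq gives the gene. The windows were searched on both strands for the cyclic AMP response element TGACGTCA, for its shorter form TGACG that lies within it, for hypoxia response cores of the form GCGTG or of the form ACGTG, for the Nr4a element AAAGGTCA, for the SF-1 type core AAGGTCA that lies within it, for the GC box GGGCGG and for the TATA box TATAAA. The Ramp1 window held the GC box 3 times and the GCGTG core 1 time, of which 1 GC box and the core lie past the printed stretch, and the Ramp3 window held them 2 times and 1 time. The Adm window held 1 GC box. Of all 33469 windows, 33.1% held a GC box and 29.7% a GCGTG core. The short form TGACG was found in the Calca window, as in 21.2% of all windows. The other motifs were in none of the 5 windows, and the shares of all windows that hold them were 1.83% for the full cyclic AMP element, 19.3% for the ACGTG core, 1.43% for the Nr4a element, 4.61% for the SF-1 type core and 14.2% for the TATA box. The Ramp1 window was 71.0% G or C against a median of 51.7% over all windows, and the Calcrl window 43.3%. Such matches are a description of letters only.

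Ramp1, which turns the Calcrl receptor into a CGRP receptor, was higher after DBP. Its log2 signal was 7.59, 7.71, 7.64 and 7.64 in vehicle replicates 1 to 4 and 8.28, 8.16, 8.36 and 8.34 in DBP replicates 1 to 4. The lowest DBP array lay 0.45 above the highest vehicle array, and the arrays of each group lay within 0.20 of each other. The group means were 7.65 ± 0.049 and 8.29 ± 0.090 (SD, n = 4 per group), a log2 difference of 0.64 ± 0.051 (SE), or 1.56-fold. Against the vehicle mean, DBP replicates 1 and 2 alone differed by 0.58, and replicates 3 and 4 alone by 0.71. Leaving out any 1 array kept it between 0.62 and 0.68. Of all 14217 genes, 56 had a higher difference and 75 a larger difference in either direction. This rank is a description only, since the family was selected on the same difference.

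Ramp2, the partner for adrenomedullin binding that vessel development depends on in mice, was nearly level. Its log2 signal was 9.51, 9.58, 9.46 and 9.50 in vehicle and 9.46, 9.54, 9.74 and 9.59 after DBP, a difference of 0.070 ± 0.064 (SE). The groups overlapped, with DBP replicate 3 the highest array. Ramp3, the other adrenomedullin partner, was at 7.41, 7.32, 7.18 and 7.28 in vehicle and 7.37, 7.17, 7.21 and 7.03 after DBP, a difference of -0.10 ± 0.085 (SE). Its groups overlapped too, and DBP replicate 4 was lowest. DBP replicates 1 and 2 gave -0.013 for Ramp2 and -0.028 for Ramp3, and replicates 3 and 4 gave 0.15 and -0.18.

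The 3 RAMP genes thus differed unequally on the same arrays. Taken within each array, Ramp1 minus Ramp2 was 0.57 higher on the log2 scale after DBP and Ramp1 minus Ramp3 was 0.74 higher, with no overlap between the groups in either. Ramp2 minus Ramp3 was 0.17 higher, with overlap: 2.09 on DBP replicate 1 lay just below the lowest vehicle array, 2.10. Ramp1 was selected with its difference known, so the lack of overlap in the ratios with Ramp1 followed largely from that selection. The ratios are a description only and give no relative abundance, since probe sets differ in brightness.

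**Figure D1:**
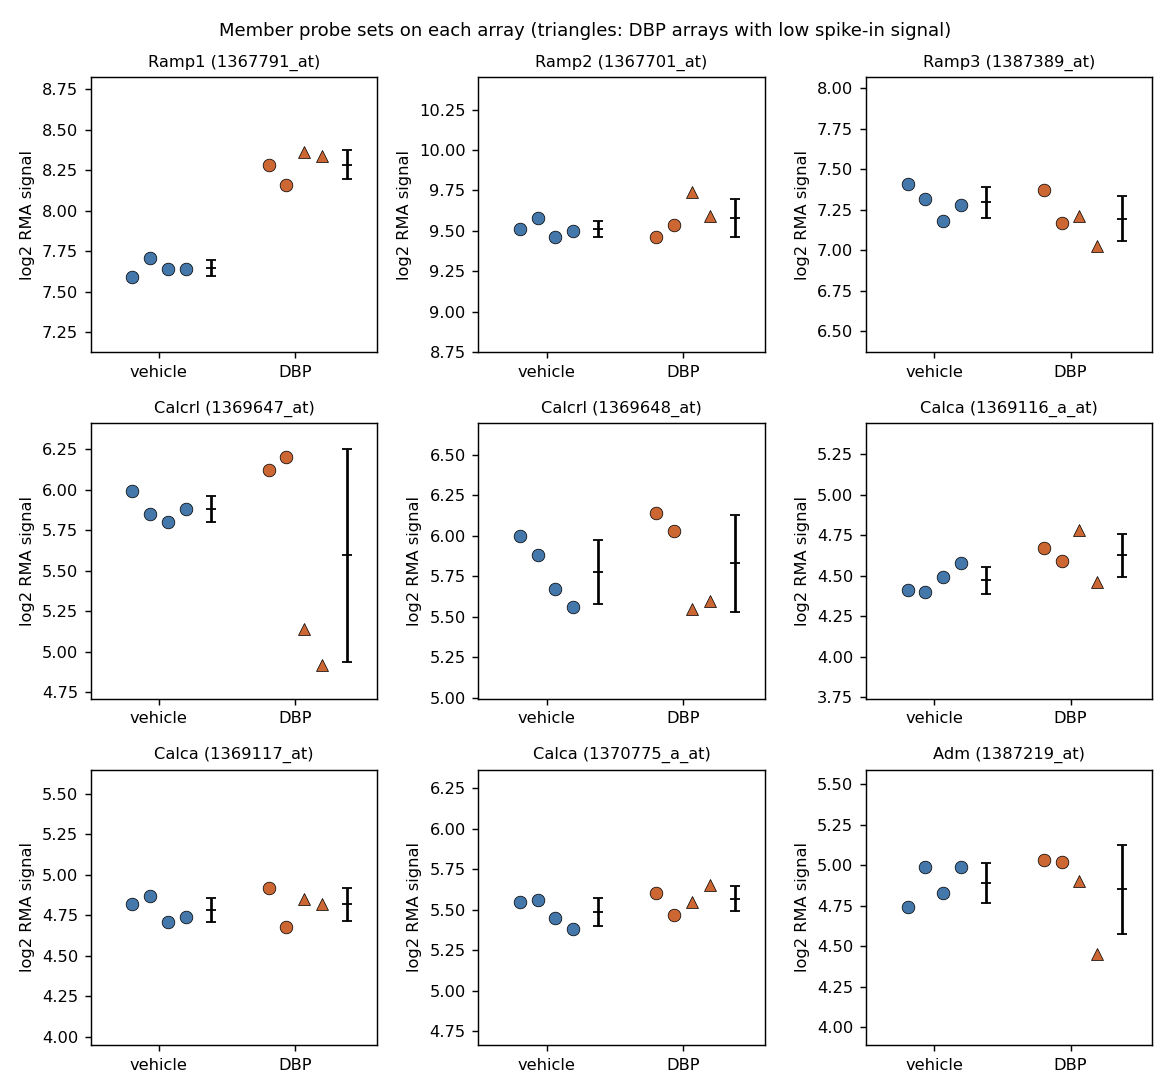
Log2 RMA signal (y axis) of the 9 member probe sets on each of the 8 arrays, with vehicle in blue and DBP in orange, triangles for the DBP arrays with low spike-in signal, and the mean and SD of each group beside the points; every panel spans the same log2 range. The 4 DBP arrays of Ramp1 sit between 8.16 and 8.36, above all vehicle arrays, whereas Calcrl probe set 1369647_at has DBP arrays on either side of vehicle.

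Calcrl, the receptor that all 3 RAMPs accompany, did not move in 1 direction. Probe set 1369647_at read 5.99, 5.85, 5.80 and 5.88 in vehicle and 6.12, 6.20, 5.14 and 4.92 in DBP replicates 1 to 4. DBP replicates 1 and 2 were above every vehicle array, and replicates 3 and 4, the arrays with low spike-in signal, were below every vehicle array. The mean difference of -0.29 ± 0.33 (SE) joins 0.28 in replicates 1 and 2 with -0.85 in replicates 3 and 4. The SD was 0.080 in vehicle and 0.66 after DBP.

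The other Calcrl probe set, 1369648_at, had the higher mean and represents the gene. It read 6.0, 5.88, 5.67 and 5.56 in vehicle and 6.14, 6.03, 5.55 and 5.60 after DBP. The same DBP arrays were high and low, but the low ones reached only the bottom of the vehicle range, and the spread within vehicle was wider (SD 0.20). Its difference was 0.053 ± 0.18 (SE), with 0.31 in replicates 1 and 2 and -0.20 in replicates 3 and 4. The mean over both probe sets was 6.13, 6.12, 5.35 and 5.26 after DBP against 5.72 to 6.0 in vehicle.

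The gap between the 2 pairs of DBP arrays was uncommon in size. Replicates 3 and 4 averaged 1.13 below replicates 1 and 2 for 1369647_at, and 66 of 31042 probe sets (0.213%) had a gap at least as large in either direction. For 1369648_at the gap was 0.51, reached by 940 probe sets (3.03%). In all, 415 probe sets (1.34%) had DBP replicates 1 and 2 above and replicates 3 and 4 below every vehicle array. For comparison, Ramp1 differed by 0.13 between the pairs, a gap that 47.3% of probe sets reached.

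Markers of the vessels in which Calcrl is known to act are given beside it. The mean log2 signal of 12 blood endothelium markers was 7.38 to 7.42 in vehicle and 7.45, 7.55, 7.41 and 7.42 in DBP replicates 1 to 4, and that of 4 lymphatic endothelium markers was 6.09 to 6.32 and 6.38, 6.44, 6.27 and 6.12. Of the blood list, 1 gene, the angiopoietin receptor Tek, had the same order of arrays as Calcrl 1369647_at, with 7.95 and 7.93 against 7.71 and 7.75 (vehicle 7.87 to 7.91). Of the lymphatic list, 1 gene, the hyaluronan receptor Lyve1, had it too in its brighter probe set, with 8.16 and 8.18 against 7.61 and 7.25 (vehicle 7.72 to 7.96). Its dimmer probe set did not, since 6.68 and 6.77 in DBP replicates 1 and 2 lay within vehicle (6.34 to 6.82). The macrophage receptor Mrc1, 1 of 8 in its list, had the same order. So did the brighter probe set of the red cell anion exchanger Slc4a1, 1 of 4 erythroid markers. A dimmer Slc4a1 probe set did not, with DBP replicate 4 at 6.13 within vehicle (5.95 to 6.26). No gene of the other 6 marker lists had this order. The mean of 4 erythroid markers was 9.83, 9.78, 8.98 and 8.99 in DBP replicates 1 to 4 and 8.97 to 9.36 in vehicle. The part of vessel or blood content, or of the spike-in difference, in the Calcrl values was not tested.

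**Figure D2:**
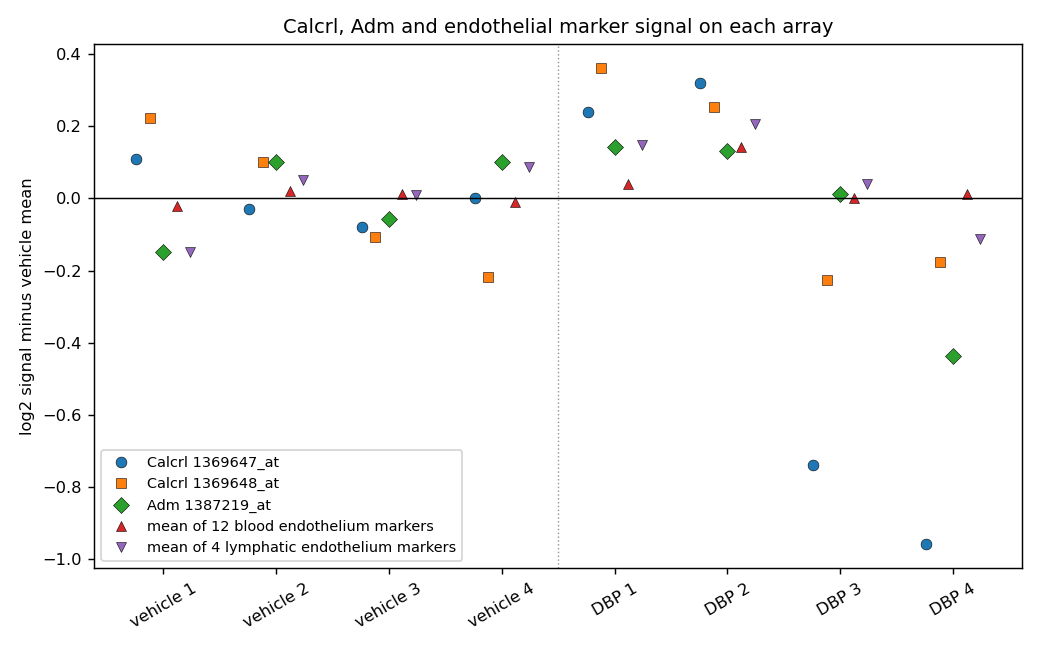
Log2 signal minus the vehicle mean (y axis) on each array (x axis) for both Calcrl probe sets, Adm, and the means of the blood and lymphatic endothelium markers. Calcrl 1369647_at lies well below the other series on DBP replicates 3 and 4, where its signal was 5.14 and 4.92.

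Adm, the gene of the vasodilator peptide adrenomedullin, read 4.74, 4.99, 4.83 and 4.99 in vehicle and 5.03, 5.02, 4.90 and 4.45 after DBP. The groups overlapped, and DBP replicate 4 was the lowest array. The difference was -0.04 ± 0.15 (SE), with 0.14 in replicates 1 and 2 and -0.21 in replicates 3 and 4.

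Calca, the gene of calcitonin and CGRP, was close to vehicle in its 3 probe sets. The brightest, 1370775_a_at, read 5.55, 5.56, 5.45 and 5.38 in vehicle and 5.60, 5.47, 5.55 and 5.65 after DBP, a difference of 0.08 ± 0.058 (SE). Probe set 1369116_a_at read 4.41, 4.4, 4.49 and 4.58 in vehicle and 4.67, 4.59, 4.78 and 4.46 after DBP. Here 3 of 4 DBP arrays lay above the highest vehicle array, and the difference was 0.16 ± 0.079 (SE). Probe set 1369117_at read 4.71 to 4.87 in vehicle and 4.68 to 4.92 after DBP, a difference of 0.03 ± 0.062 (SE). From DBP replicates 1 and 2 the 3 probe sets, in this order, gave 0.05, 0.16 and 0.015, and from the other pair 0.12, 0.15 and 0.05.

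**Figure D3:**
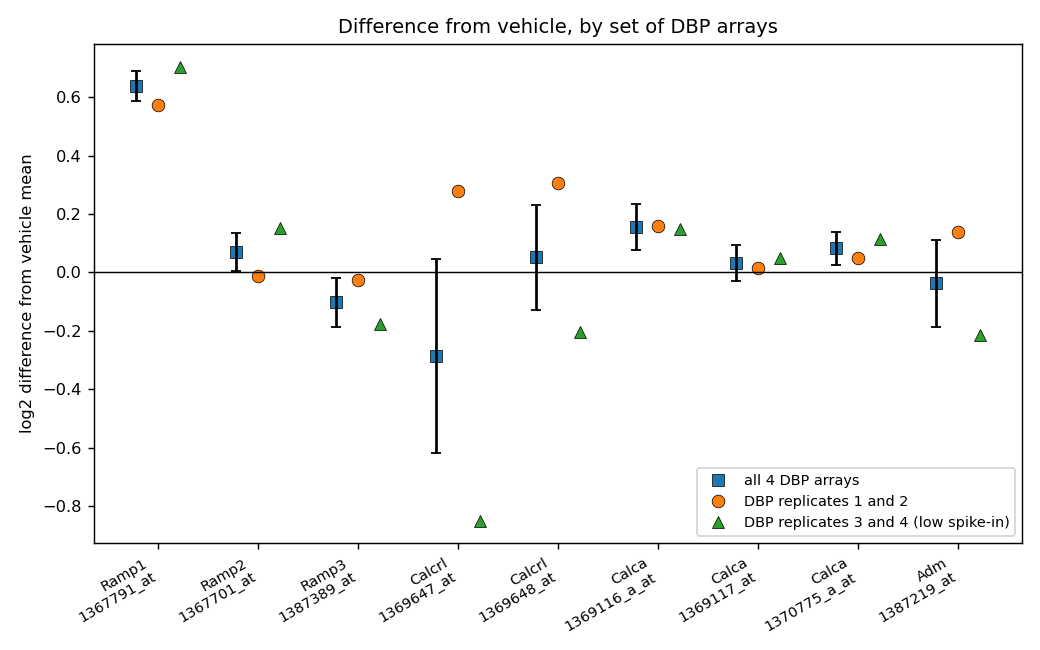
Log2 difference from the vehicle mean (y axis) for each member probe set (x axis), from all 4 DBP arrays (squares, with SE bars), from DBP replicates 1 and 2 (circles) and from replicates 3 and 4 (triangles). Ramp1 is at 0.64, 0.58 and 0.71, and Calcrl 1369647_at at -0.29, 0.28 and -0.85.

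The brightness of the probe sets limits what the members can show. By mean signal, Ramp2 stood at percentile 92.1 of the 31042 probe sets, Ramp1 at 74.4 and Ramp3 at 64.7. The Calcrl probe sets stood at 45.4 and 46.3, Adm at 34.0 and those of Calca between 29.1 and 42.7. No detection calls were used, so for Calcrl, Adm and Calca a change in a dim signal may be compressed.

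As a background to the calls given for other genes, 1.07% of all probe sets had a Benjamini-Hochberg adjusted p under 0.05 in limma's moderated test, and vehicle and DBP arrays did not overlap for 10.9% of them. Since the family was selected on this contrast, the members are not counted against these shares.

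Genes whose signal followed Ramp1 most closely were sought among 9553 genes brighter than the median probe set. Over the 8 arrays the highest Pearson correlations were those of Hspe1, the mitochondrial co-chaperonin (r = 0.99), and of Schip1, Vps11, Fbp2 and Tmem178a (0.97 to 0.98). Hspe1 read 12.33 to 12.38 in vehicle and 12.63, 12.64, 12.73 and 12.68 after DBP. Fbp2, the muscle form of fructose bisphosphatase, read 6.26 to 6.39 in vehicle and 6.94, 6.74, 7.02 and 6.86 after DBP. Points in such a correlation fall into the 2 groups, so any gene with a steady DBP difference scores high. By deviations from the group means the highest were Lzts2, Ankrd2, Mapk8ip1, Ube2a and RT1-Ba (r = 0.95 to 0.97), and their log2 differences were 0.02 to 0.24, none past the adjusted threshold. These are the top values of 9553 genes over 8 arrays, a search that can yield high r by itself, and Ramp1 varied little within groups. Whether these genes share anything with Ramp1 was not tested. Hspe1 had r = 0.70 by deviations and Tmem178a -0.14.

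Of 70 measured genes in 6 pathway lists, 1 rose and 0 fell at an adjusted p under 0.05 in limma, where 0.598% of all 14217 genes rose and 0.626% fell. At an unadjusted p under 0.05 there were 14, against 19.1% of all genes, with 8 higher and 6 lower. The median log2 difference of the 70 genes was 0.01, beside 0.02 over all genes.

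**Figure D4:**
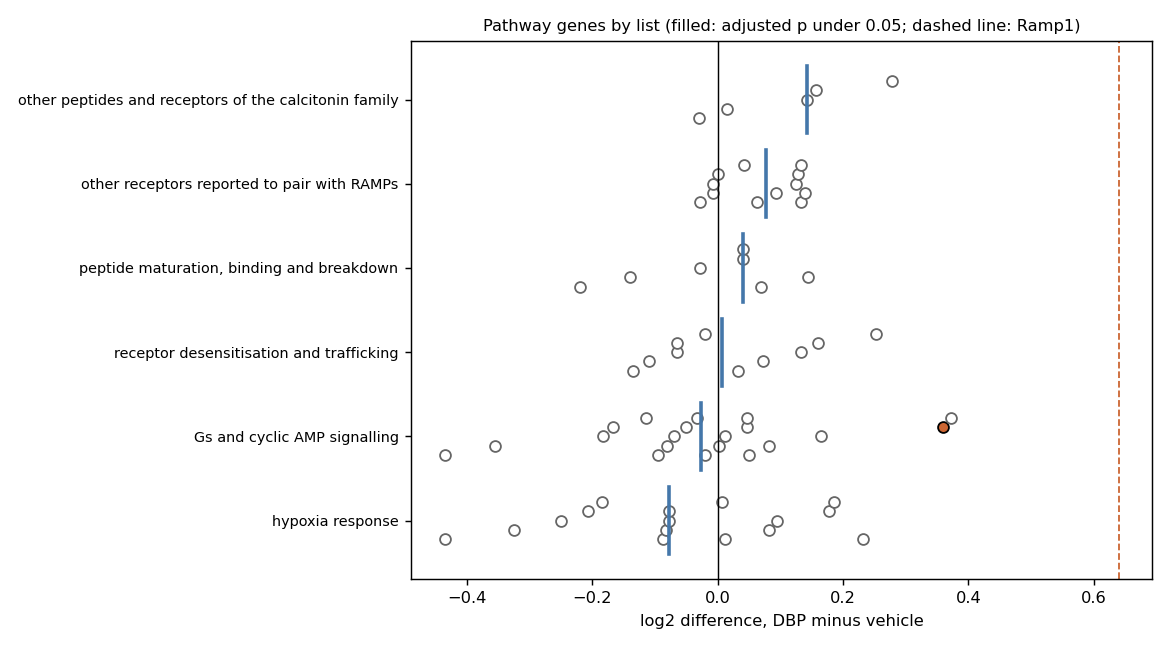
Log2 difference between DBP and vehicle (x axis) for each measured gene of the 6 pathway lists (y axis), with the list median as a blue bar, filled points for an adjusted p under 0.05 and a dashed line at the Ramp1 difference of 0.64. The 1 filled point is Prkar2b, and the listed genes lie between -0.44 and 0.37.

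The gene that rose was Prkar2b, a regulatory subunit of the cyclic AMP-dependent protein kinase, in the list of Gs and cyclic AMP signalling. It read 9.13, 9.02, 9.11 and 9.05 in vehicle and 9.46, 9.59, 9.35 and 9.35 after DBP. All DBP arrays were above all vehicle arrays, and the difference was 0.36 (limma adjusted p = 0.0370). Prkar2b stood 0.45 above vehicle in DBP replicates 1 and 2, and replicates 3 and 4 stood 0.27 above it. The call ended without vehicle replicate 1, 2, 3 or 4 (adjusted p = 0.0981, 0.112, 0.123 and 0.116) and without DBP replicate 1 (0.0796). With the replicate number as a block the adjusted p was 0.0896, and with unmoderated statistics 0.113.

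Of the 20 genes of that list, 6 had an unadjusted p under 0.05, with 3 higher and 3 lower, and the median was -0.03. Pde4b, which breaks down cyclic AMP, read 6.64 to 6.70 in vehicle and 7.07, 7.23, 7.03 and 6.82 after DBP (difference 0.37, adjusted p = 0.0630), and its other probe set gave 0.06. Adenylyl cyclases make cyclic AMP from ATP. Adcy3 read 7.65 to 7.67 in vehicle and 7.38, 7.49, 7.20 and 7.16 after DBP (difference -0.36, adjusted p = 0.0620), or -0.23 from DBP replicates 1 and 2 and -0.48 from the other pair. Adcy9 differed by -0.44 (adjusted p = 0.100) and Adcy4 by -0.18 (adjusted p = 0.153). Gnas, which encodes the Gs alpha subunit itself, differed by -0.08 in its brightest probe set, and by -0.52 and -0.63 in dimmer ones (adjusted p = 0.122 and 0.108).

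Other peptides and receptors of the calcitonin family gave 0 calls in limma among 5 genes, with 1 at an unadjusted p under 0.05, and a median of 0.14. Calcr, the calcitonin receptor, with which RAMPs form amylin receptors, read 3.73 to 3.87 in vehicle and 4.03, 3.99, 4.0 and 3.86 after DBP (difference 0.16, adjusted p = 0.230), and its other probe set gave 0.04. Iapp, which encodes amylin, differed by 0.28 (adjusted p = 0.292), with 0.07 in replicates 1 and 2 and 0.49 in replicates 3 and 4. Calcb, the gene of the second CGRP, differed by 0.14 (adjusted p = 0.299). Signals of these 3 genes were dim, between percentile 17.2 and 21.9. Crcp, a protein known to help CGRP receptor signalling, differed by 0.02, and Ackr3, a scavenger receptor that binds adrenomedullin, by -0.03, a sign that flips after quantile normalization (0.016).

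Other receptors reported to pair with RAMPs gave 0 calls among 12 genes and 0 at an unadjusted p under 0.05. Their differences ran from -0.03 to 0.14. Those of Sctr, the secretin receptor, and of Glp2r, a glucagon-like peptide receptor, were 0.14 and 0.13 (adjusted p = 0.410 and 0.312). Those of Glp1r, the other glucagon-like peptide receptor, and of Gcgr, the glucagon receptor, were both 0.13 (adjusted p = 0.467 and 0.529), but Gcgr was at -0.055 in DBP replicates 1 and 2 alone. Of the 12 genes, 9 were dimmer than the median probe set.

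Enzymes and binding proteins that mature or break down the peptides gave 0 calls among 7 genes, 0 at an unadjusted p under 0.05, and a median of 0.04. Pam, which amidates CGRP and adrenomedullin, differed by 0.07 (adjusted p = 0.603). Mme, the peptidase neprilysin, read 7.94 to 8.03 in vehicle and 8.04, 7.97, 7.63 and 7.43 after DBP, a difference of -0.22 (adjusted p = 0.354). It was below every vehicle array on DBP replicates 3 and 4, as Calcrl 1369647_at was, with 0.018 in replicates 1 and 2 and -0.46 in the others. Ece1, an endothelin-converting enzyme that also cleaves CGRP in endosomes, differed by -0.14 and Cpe, a carboxypeptidase of peptide processing, by 0.15 (adjusted p = 0.408 and 0.417).

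Genes of receptor desensitisation and trafficking gave 0 calls in limma among 10, with 2 higher at an unadjusted p under 0.05, and a median of 0.01. Nherf1, a scaffold known to hold RAMP3-containing receptors at the membrane, read 7.35, 7.54, 7.34 and 7.46 in vehicle and 7.62, 7.83, 7.66 and 7.59 after DBP. Its groups did not overlap, and the difference of 0.25 did not pass (adjusted p = 0.128). Its dimmer probe set gave 0.23 with overlap. Rab11a, a GTPase of receptor recycling, differed by 0.13 (adjusted p = 0.261). The receptor kinase Grk3 differed by 0.16 and beta-arrestin Arrb1 by -0.11 (adjusted p = 0.350 and 0.3605), while a dimmer Arrb1 probe set gave 0.20.

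Adm is a known target of hypoxia-inducible factors, and the other genes of that response gave 0 calls in limma among 16. At an unadjusted p under 0.05 there were 5, with 2 higher and 3 lower, and the median was -0.08. Vegfa, the vascular growth factor, read 8.38, 8.37, 8.30 and 8.31 in vehicle and 8.03, 8.0, 7.87 and 8.16 after DBP. In this brighter probe set all DBP arrays were below vehicle. The difference of -0.33 missed the threshold (adjusted p = 0.0562), with the same -0.33 in either pair of DBP arrays. A dimmer Vegfa probe set overlapped between the groups and differed by -0.28 (adjusted p = 0.297). There the pair with low spike-in signal stood at -0.465 against vehicle, and the other pair at only -0.1. Hif1a, the oxygen-regulated subunit, differed by -0.21 (adjusted p = 0.177). Car9, carbonic anhydrase 9, differed by 0.23 and Egln1, a prolyl hydroxylase that marks the factor for breakdown, by 0.18 (adjusted p = 0.0985 and 0.186).

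Cell types that could carry the members were described by further marker lists. Of 12 blood endothelium markers 1 rose, the diaphragm protein Plvap, by 0.36 (limma adjusted p = 0.0471), and the median was 0.055. Plvap was 0.27 higher in the first pair of DBP arrays and 0.45 in replicates 3 and 4. That call ended in 10 of 22 alternatives, among them without vehicle replicate 1, 2, 3 or 4 (adjusted p = 0.142, 0.124, 0.125 and 0.142) and without DBP replicate 3 (0.0999) or without DBP replicates 3 and 4 (0.0673). Lists of lymphatic endothelium (4 genes), smooth muscle and pericytes (8), nerve fibres (9), neuroendocrine cells (5), macrophages (8), Sertoli cells (4), fetal Leydig cells (6), germ cells (2) and erythroid cells (4) gave 0 calls. In this order they had 0, 3, 2, 3, 1, 1, 3, 0 and 0 genes at an unadjusted p under 0.05, which 19.1% of all genes reached. Of the 3 neuroendocrine genes 2 were higher and 1 lower, and of the 3 fetal Leydig genes 1 was higher and 2 lower. The largest fetal Leydig difference was that of Insl3, -0.34 (limma adjusted p = 0.0732). Nerve markers, of interest because CGRP is stored in sensory fibres, had a mean log2 signal of 5.78 to 5.80 in vehicle and 5.83 to 5.98 after DBP. The median difference of the list was 0.03 from DBP replicates 1 and 2 and 0.14 from replicates 3 and 4. The 2 of these 9 genes at an unadjusted limma p under 0.05 were Stmn2 (0.33) and Th (0.265). A dimmer Stmn2 probe set gave 0.09 with overlap. Prph, Nefl and Nefm differed by 0.045, 0.018 and -0.04, and Scn9a was very dim (percentile 1.55). The list covers nerve fibres and ganglion cells in general and does not single out sensory fibres. Neuroendocrine markers had a mean log2 signal of 4.83 to 4.86 in vehicle and 4.77 to 5.12 after DBP. The part of cell content in the Ramp1 difference was not tested.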

How the data were processed

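The authors deposited log2 signals, 1 per probe set and array; RMA is the method that the submitters' processing notes name. Its version, and whether arrays were normalized together, are not given in the sources used here. Since RMA sets arrays to a common distribution, a change of most transcripts would not be seen. Of 31099 probe sets, 57 controls were left out and 31042 tested. Names came from the platform's gene table, in which 20826 had 1 symbol, 436 several and 9780 none. The probe set with the highest mean over 8 arrays represented a gene.

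Differences are DBP minus vehicle, and a member's SE is computed from the group variances. Tests used limma 3.58.1 (R 4.3.3), 2-sided, Benjamini-Hochberg adjusted over all probe sets, threshold 0.05. The procedure was also run on simulated data with independent noise of equal spread in both groups. Those data lacked the split among DBP arrays, so they do not cover it. Tables used Python 3.11.15 and pandas 2.3.3, figures matplotlib 3.10.9. No pair of arrays was identical (0 pairs).

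The members and lists were chosen with earlier results of these data known. Genes named were all members, list genes past the threshold plus up to 4 with the smallest unadjusted p per list, and the 5 genes most like Ramp1 by each correlation; marker genes were named only where a result turns on them, and others after their values were seen. Alternatives covered filters, normalization, the prior, covariates, array weights, probe set choice and samples left out. Same-numbered arrays did not deviate together (r of deviations 0.11, -0.08, 0.10 and -0.02 for numbers 1 to 4), so the numbers were not taken as pairs.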

Additional observations from a re-analysis of the deposited data

Results flagged for a closer look

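Of 70 groups of 4 arrays checked (35 probe sets in either exposure), 3 had 1 array far from the other 3, where chance gives about 1 in 20. Vehicle replicate 1 was lowest for Glp2r, at 3.27 against 3.39 to 3.41. DBP replicate 2 was lowest for Sctr, at 4.65 against 4.86 to 4.87, and DBP replicate 3 was highest for Glp1r, at 4.19 against 3.82 to 3.85. None of the 9 member probe sets met this check; the Calcrl split puts 2 DBP arrays on either side and is not of this kind.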

How the results depend on the processing

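The Ramp1 difference kept its sign in 18 alternatives, between 0.58 and 0.71. Since its groups did not overlap, leaving out arrays could not have changed that sign. The differences of Ramp2, Ramp3, Calca and Adm moved by less than the spread between replicates, but they are themselves small and some changed sign or size. Adm (-0.038) became 0.017 with the RNA integrity number, 0.029 with array weights, 0.096 without DBP replicate 4 and 0.14 without DBP replicates 3 and 4 or with a term for these arrays, and it ran from -0.098 to 0.096 without any 1 array. Ramp2 (0.070) became -0.013 without DBP replicates 3 and 4 or with that term, and ran from 0.018 without DBP replicate 3 to 0.11 without DBP replicate 1. Ramp3 kept its sign and ran from -0.16 without DBP replicate 1 to -0.048 without DBP replicate 4. The dim Calca probe set 1369117_at (0.033) became -0.013 with quantile normalization and -0.0017 without DBP replicate 1. The Calcrl difference (brighter probe set) moved from 0.053 to 0.31 without DBP replicates 3 and 4 (0.31 also with that term) and to -0.20 without DBP replicates 1 and 2. It was -0.12 as the mean over both probe sets, and -0.051 to 0.15 without any 1 array, with -0.051 and -0.014 without DBP replicates 1 and 2 in turn, 0.15 and 0.13 without DBP replicates 3 and 4 in turn and -0.020 without vehicle replicate 4. The dimmer Calcrl probe set (-0.29) became 0.28 without DBP replicates 3 and 4 or with that term. The 331 probe sets called (130 higher, 201 lower) were 317 after shifting arrays to the same median (158 higher, 159 lower). They became 577 without DBP replicates 3 and 4, 4129 without DBP replicates 1 and 2, 175 with the replicate block, 74 with unmoderated t statistics and 82 to 606 without any 1 array (vehicle replicates 1 to 4: 114, 122, 82 and 118; DBP replicates 2 and 3: 606 and 220). Among pathway genes 1 was called; the count was 8 without DBP replicates 1 and 2, 4 with array weights or above the median signal, 3 without DBP replicates 3 and 4, above a signal of 5 or with a trend and robust prior, and 2 with the term for low spike-in arrays, the mean over probe sets or quantile normalization. It was 0 with the replicate block or unmoderated statistics (15 and 16 at an unadjusted p under 0.05). It was also 0 (13 unadjusted) when probe sets with the suffix _x_at, _s_at or _a_at were left out, which removes the Prkar2b probe set itself. It was 0 to 4 without any 1 array: 0 without any 1 vehicle array or DBP replicate 1, 2 without DBP replicate 2 and 4 without DBP replicate 4. Among the other pathway genes named, small uncalled differences changed sign: Ackr3 to 0.040 with array weights, 0.13 without DBP replicates 3 and 4 or with that term, 0.016 with quantile normalization and -0.097 to 0.083 without any 1 array (0.083 without DBP replicate 4); Arrb1 to 0.046 over its probe sets; Gcgr to -0.055 and Mme to 0.018 without DBP replicates 3 and 4 or with that term; Pam to -0.015 when the suffixed probe sets, its brightest among them, were left out and a dim one took its place. The cause was not tested. Dim signal limits Calca, Adm, Calcr, Iapp and Calcb.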

Other observations

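Few probe sets shared the Calcrl pattern with a gap of similar or larger size. Besides the dimmer Calcrl probe set, 5 had DBP replicates 1 and 2 above every vehicle array, replicates 3 and 4 below every one, and a gap of at least 1 between the pairs. They were those of Tnc, the matrix protein tenascin C (7.82, 8.04, 6.80 and 5.90 in DBP replicates 1 to 4), Mmrn1, multimerin 1 (6.07, 6.23, 5.25 and 4.73), Dpp4, a membrane dipeptidase (5.61, 5.65, 5.0 and 4.07), the red cell anion exchanger Slc4a1 (8.10, 7.79, 6.25 and 6.42) and 1 probe set with no symbol used here. These were named after their values were seen.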
